A study of Homo sapiens with 2 samples.

Results

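Broad E2F1 peaks are the widest regions in a chromatin immunoprecipitation sequencing (ChIP-seq) peak list that do not carry the highest scores. They were selected on measured values, namely a width of at least 1200 bp and a score below 200, on chromosomes 1 to 22. This rule found 659 peaks among 28108 on these chromosomes, or 2.34% (exact 95% interval 2.17 to 2.53%), out of 28734 in the whole list. Width and score chose the peaks, so both are given only as a description. Spacing, neighbours and position were not part of the rule. Near spacing is still not independent of width, since close sites called as a single wide peak do not count as neighbours. Whether this happened was not tested.

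The list comes from LNCaP-abl, a prostate cancer line derived from LNCaP that grows without androgen and is used to model castration-resistant disease. Cells of passages 61 to 64 were cultured with 10% charcoal-stripped serum, and androgen had been withheld for 3 days at collection. The series has 2 samples, 1 in which a pair of antibodies pulled down E2F1 and 1 input without antibody. Only the E2F1 library has a peak list here. No value below has a replicate, enrichment over input was not analysed here, and read depth is unknown.

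E2F1 is a transcription factor that binds DNA together with a DP protein and is held in check by the retinoblastoma protein. It is best known for acting at the promoters of genes for S phase entry, DNA replication and repair. A ChIP-seq peak is a stretch where reads pile up above background. Its width depends on the length of the sonicated fragments, on how many bound sites lie close together and on where the peak caller sets the edges.

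The broad peaks were wide but not extreme. Their median width was 1321 bp, with quartiles of 1247 and 1442 bp, against a median of 417 bp over all peaks of the same chromosomes. A width of at least 1400 bp was reached by 215 of them, at least 1600 bp by 55 and at least 2000 bp by 8. They made up 2.34% of the peaks and covered 6.32% of the bases under peaks.

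Most broad peaks scored well above the middle of the list. Their median score was 71.6, within a range of 11.2 to 198, whereas it was 23.4 over all peaks of these chromosomes. The score is the authors' value for each peak, with no scale given. It is used here only to rank, match and describe peaks within the list. Of the broad peaks, 395 (59.9%) lay above the upper quartile of all scores, 60.8, and 19 (2.88%) lay below the median. They are therefore better described as wide peaks of middle to high score than as weak ones.

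**Figure D1:**
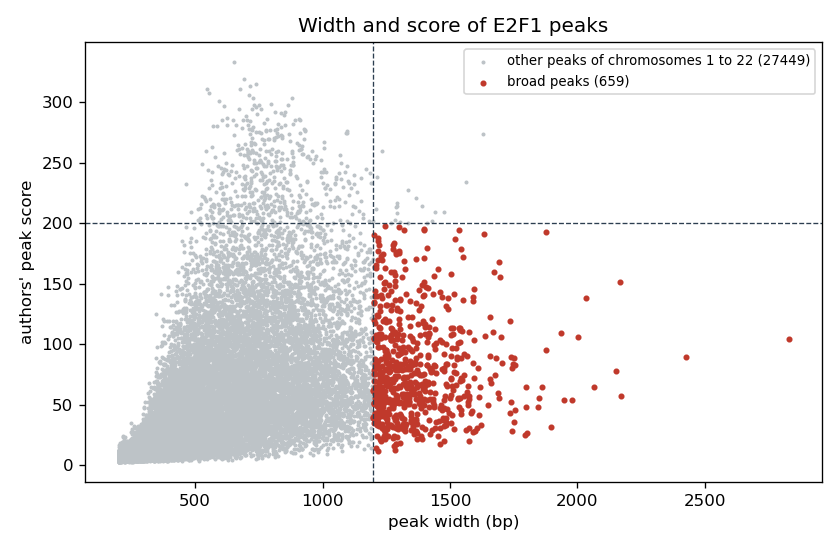
Each point is 1 peak of chromosomes 1 to 22, with its width in bp on the x axis and the authors' score on the y axis. Dashed lines mark the width of 1200 bp and the score of 200 that define the 659 broad peaks (red), of which 8 are at least 2000 bp wide.

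Broad peaks were rare among weak peaks and made up a nearly even share of the stronger ones. Below a score of 25 they were 26 of 14513 peaks (0.179%). The share was 2.79% for scores from 25 to 50 and 5.76% from 50 to 75. From 75 up to 200 it stayed between 5.92 and 7.36%. At scores of 200 or more, which the rule leaves out, 21 of 533 peaks (3.94%, exact 95% interval 2.46 to 5.96%) were at least 1200 bp wide.

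Within the broad peaks, width and score were not ranked alike. Spearman's rho was 0.02 over the 659 broad peaks and 0.80 over the 26916 narrower peaks with a score below 200. These values are descriptions across peaks of 1 library, and a set limited in both width and score has less room for a correlation. Per kb of width, the broad peaks had a median score of 51.8 (quartiles 35.6 and 74.4). As the score has no scale given, score per kb is a description only and not a measure of binding density.

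To set them beside narrower peaks of equal score, the 26916 narrower peaks were weighted in score bins of 10 units to the scores of the broad peaks. This is called standardised below. The standardised narrower peaks had a median score of 71.3 and a median width of 664 bp. Their median score per kb was 109.5, with quartiles of 76.3 and 155. The rule fixes the direction of this difference.

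The 10 widest broad peaks lay on 8 chromosomes (coordinates are hg19 and 1-based). The widest, 2828 bp on chromosome 6 from 58776506 to 58779333, scored 104. It had no other peak within 100 kb, and its nearest peak was 488523 bp away. The second, 2426 bp on chromosome 19 from 54693093 to 54695518, scored 89.5 and lay in a dense stretch with 9 other peaks within 100 kb. The third, on chromosome 20 from 48806933 to 48809101, was 2169 bp wide and scored 56.8. These sites thus differed widely in how crowded their surroundings were.

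On chromosome 21 a peak of 2167 bp from 9825446 to 9827612 scored 151. On chromosome 8 a peak of 2153 bp from 145016233 to 145018385 scored 77.6 and had 13 other peaks within 100 kb. Chromosome 2 held a pair of the 10, one of 2064 bp from 28614542 to 28616605 (score 64.4, no other peak within 100 kb) and one of 2035 bp from 153573832 to 153575866 (score 138). Chromosome 17 also held a pair, one of 2003 bp from 44269731 to 44271733 (score 106) and one of 1947 bp from 54910543 to 54912489 (score 53.6). The last of the 10, on chromosome 3 from 53078849 to 53080828, was 1980 bp wide with a score of 53.5. Across the 10, the nearest other peak was between 7780 and 488523 bp away. Genes, exons and base sequence at these positions were not analysed here, since no annotation or genome of hg19 was used.

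The 5 highest-scoring broad peaks were of ordinary width for the set. They scored from 194 to 198 and were between 1245 and 1399 bp wide, around the median of 1321 bp. The highest lay on chromosome 3 from 160116884 to 160118128 and had a weak 200 bp peak with a score of 12.8 at 1540 bp. The next were on chromosome 6 from 131456387 to 131457688, chromosome 18 from 657357 to 658755, chromosome 8 from 48872500 to 48873897 and chromosome 5 from 176738484 to 176739803. The peak on chromosome 18 had another broad peak as its nearest neighbour, 1286 bp wide with a score of 136 at a distance of 52987 bp.

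The 5 lowest-scoring broad peaks scored between 11.2 and 17.03 and were 1210 to 1459 bp wide. The lowest lay on chromosome 3 from 63849110 to 63850326. The others were on chromosome 12 from 105608532 to 105609816, chromosome 2 from 88315577 to 88316786, chromosome 5 from 149865187 to 149866465 and chromosome 14 from 103243316 to 103244774. The nearest other peak scored higher than the broad peak at 4 of these 5 sites. At the exception, the lowest site, the nearest peak scored 9.55.

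Few bp or score units separated the peaks nearest to each limit of the rule. Just inside the width limit were peaks of 1200 bp on chromosomes 8, 22 and 1 with scores of 61.9, 61.1 and 39.3. Just outside were peaks of 1199 bp on chromosomes 4, 19 and 2 with scores of 132, 123 and 82.9. Just inside the score limit were scores of 198, 197 and 195, and just outside were 200.3, 200.3 and 200.4 at widths of 1408, 1337 and 1268 bp.

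Broad peaks had fewer near neighbours than narrower peaks of equal score. Another peak lay within 1 kb, edge to edge, of 61 of the 659 broad peaks (9.26%, exact 95% interval 7.15 to 11.7%). The share was 17.3% over all peaks of chromosomes 1 to 22 and 17.02% (SE 0.344) in the standardised narrower peaks. The difference from the standardised share was -7.76 percentage points (95% interval -10.1 to -5.45). Such intervals hold only the counting error. Neighbouring peaks of 1 library are not independent of each other, and no test was made across peaks. Close sites joined into a wide peak would also lower this share, which was not tested.

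Shares within longer distances, which also count the neighbours within 1 kb, had the same direction. Within 5 kb, 104 broad peaks (15.8%) had a neighbour, against 26.6% of the standardised narrower peaks. Within 10 kb, 197 broad peaks (29.9%, 26.4 to 33.5%) had one, against 39.6% of all peaks and 39.9% of the standardised narrower peaks. Peaks on both sides within 1 kb were found at 1 broad peak (0.152%), against 0.760% standardised. The share within 1 kb was lower in broad peaks on each of the 22 chromosomes. Here the narrower peaks of a chromosome were weighted in score bins of 50 units to the scores of all 659 broad peaks. They were not weighted to the broad peaks of that chromosome, and the counts behind the broad shares were only 0 to 9. Margins ran from under 1 point on chromosome 5 (14.3 against 15.1%) to the largest on chromosome 10. There 0 of 27 broad peaks had such a neighbour against 16.2%.

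**Figure D2:**
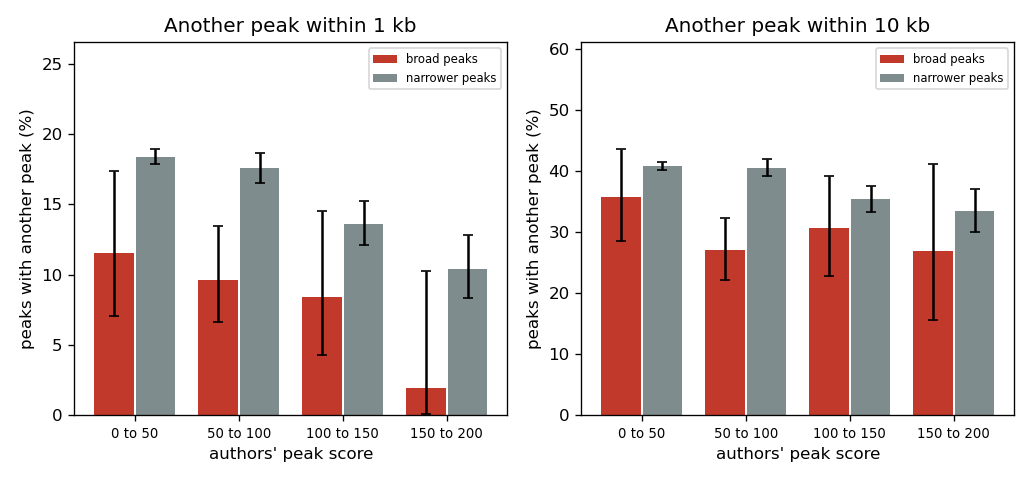
Bars give the percentage of peaks with another peak within 1 kb (left) or 10 kb (right) in 4 classes of the authors' score, for broad (red) and narrower (grey) peaks, with exact 95% intervals. Broad peaks are lower in each class, and the intervals do not overlap only for scores below 50 at 1 kb and from 50 to 100 at both distances. Shares are not weighted by score within a class, so scores are not equal there, least of all below 50.

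Score classes showed where the difference was best measured, with shares not weighted by score within a class. The class below 50 held 165 broad and 19338 narrower peaks, and its scores were not alike. Of the 14513 peaks scoring below 25, only 26 were broad. For scores from 50 to 100, 30 of 311 broad peaks (9.65%, 6.60 to 13.5%) and 17.6% of 4888 narrower peaks (16.5 to 18.7%) had a neighbour within 1 kb. The median distance to the nearest peak in this class was 25402 bp for broad and 14695 bp for narrower peaks. For scores from 150 to 200, 1 of 52 broad peaks (1.92%, 0.0487 to 10.3%) had a neighbour within 1 kb. The share was 10.4% of 739 narrower peaks (8.31 to 12.9%), and the intervals overlapped. For scores from 100 to 150 the intervals also overlapped (8.40% of 131 against 13.6% of 1951), and the median distances were 17176 and 17745 bp.

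At equal score, the share with a neighbour was lower in wider peaks, with no break at 1200 bp. Without weighting by score it was 17.01% (16.4 to 17.7%) at 200 to 399 bp, 21.6% (20.6 to 22.7%) at 400 to 599 bp and 10.9% (9.22 to 12.9%) at 1000 to 1199 bp, so the narrowest class was not the highest. Among narrower peaks standardised to the scores of the broad peaks, it was 22.5% (SE 2.51) at 200 to 399 bp, 20.1% (SE 0.688) at 400 to 599 bp and 17.4% (SE 0.636) at 600 to 799 bp. It was 14.3% (SE 0.708) at 800 to 999 bp and 11.1% (SE 0.930) at 1000 to 1199 bp. The step from 200 to 399 bp to 400 to 599 bp was within the error. In the class of 200 to 399 bp, 75 broad peaks had no narrower peak in their score bin and were left out of the weights. Among the broad peaks it was 11.04% (49 of 444) at 1200 to 1399 bp, 6.88% (11 of 160, 3.48 to 12.0%) at 1400 to 1599 bp and 1.82% (1 of 55, 0.0460 to 9.72%) at 1600 bp or more. The broad peaks next to the limit thus had nearly the same share as the narrower peaks next to it. Median scores of the broad width classes were 69.8, 76.1 and 74.4, so they differed little in score.

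**Figure D3:**
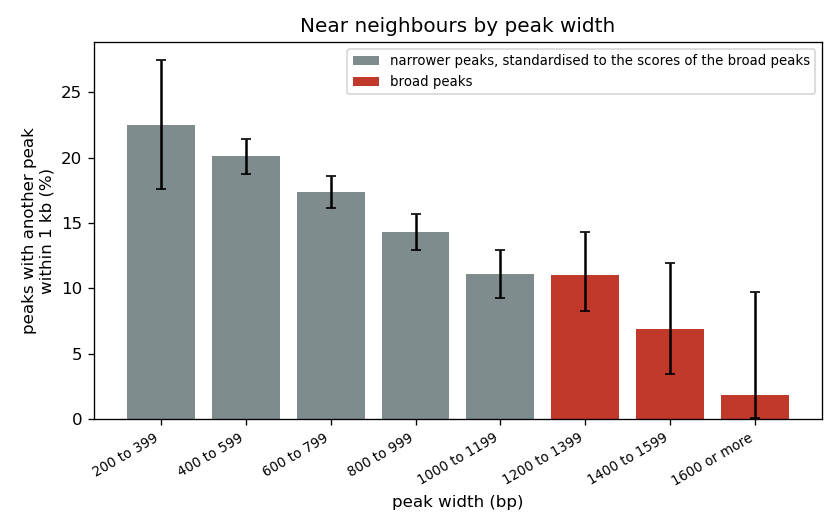
The y axis is the percentage of peaks with another peak within 1 kb, by width class in bp. Grey bars are narrower peaks standardised to the scores of the broad peaks (error bars, 95% intervals from the SE) and red bars are broad peaks (exact 95% intervals); the share steps down from 22.5% at 200 to 399 bp to 1.82% at 1600 bp or more.

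The gap in neighbours was limited to the first few kb around a broad peak. Within 1 kb of an edge there were 0.0956 other peaks (SE 0.0119) per broad peak and 0.183 (SE 0.00382) per standardised narrower peak, a ratio of 0.523. The ratio was 0.494 from 1 to 2 kb and 0.541 from 2 to 5 kb. From 5 to 10 kb it was 0.851. From 10 to 20, 20 to 50 and 50 to 100 kb it was 1.003, 0.989 and 0.980. At these longer distances broad and narrower peaks thus had nearly equal numbers of other peaks around them.

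**Figure D4:**
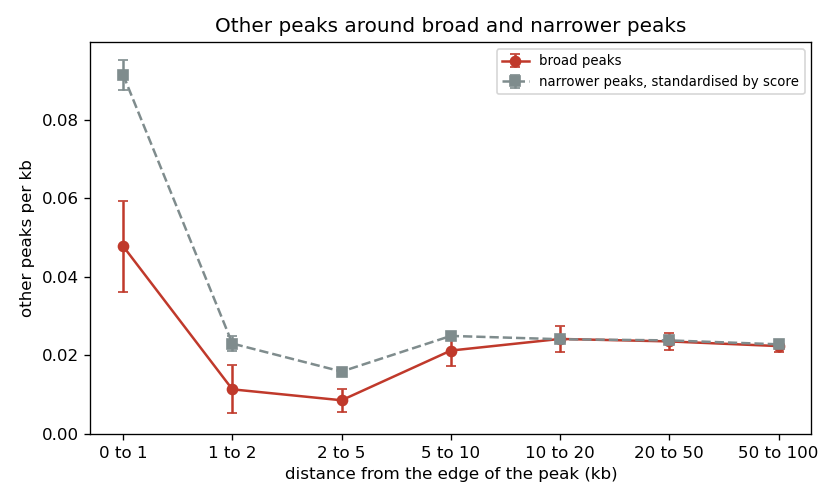
The y axis is the mean number of other peaks per kb and the x axis the distance in kb from the edge of the peak, both sides together, with error bars of 95% from the SE over peaks. Broad peaks (red) lie below the narrower peaks standardised by score (grey) up to 5 kb and on them from 10 kb outward.

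Over all scores together, the nearest peak was farther away from a broad peak. The median distance was 20456 bp (95% interval of the median 17767 to 23628 bp, quartiles 8467 and 43824 bp). It was 15401 bp in the standardised narrower peaks, a ratio of 1.33 (1.15 to 1.53). The interval of the ratio takes the narrower median as fixed and holds only the error of the broad median. Between centres the medians were 21297 and 15952 bp. By score class, the edge medians differed most from 50 to 100 (25402 against 14695 bp). They were 17390 against 15588 bp below 50 and 20998 against 18593 bp from 150 to 200. From 100 to 150 the order was reversed (17176 against 17745 bp). The closest approach was 83 bp, at a broad peak on chromosome 6 from 17706043 to 17707408, whose neighbour was 262 bp wide. Other close cases were on chromosome 5 from 109024800 to 109026132 (97 bp), chromosome 16 from 46722510 to 46723877 (98 bp), chromosome 1 from 226925785 to 226927014 (100 bp) and chromosome 14 from 35343232 to 35344715 (105 bp).

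Neighbours close to a broad peak were mostly small and weak. Among the 61 broad peaks with a peak within 1 kb, that neighbour had a median score of 11.7 (95% interval 9.72 to 14.8) and a median width of 286 bp. In standardised narrower peaks with such a neighbour the medians were 18.9 and 375 bp. The neighbour scored below 20 at 48 of the 61 (78.7%, against 51.8% standardised) and scored higher than the broad peak at 2 (3.28%, against 18.4%). The shares of 78.7 and 3.28% were not set beside those over all peaks. The width of the neighbour was at most 638 bp. The file gives neither summits nor signal, so how many binding sites a broad peak holds, and whether a small neighbour is a site of its own, is unknown.

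At the scale of 100 kb, broad peaks and other peaks of their score had the same median number of neighbours. The median number of other peaks within 100 kb was 4 in both, with quartiles of 2 and 6 for broad and 2 and 7 for standardised narrower peaks. Sparse surroundings with 1 to 2 other peaks held 205 broad peaks where the score bins gave 171, a ratio of 1.20 (95% Poisson interval 1.04 to 1.38). In the other 4 classes of peak number the ratio was between 0.789, for 0 other peaks, and 0.972, with intervals that included 1. No other peak lay within 100 kb of 36 broad peaks (5.46%, 3.86 to 7.48%), against 8.95% of all peaks and 6.99% standardised. A broad peak was the highest-scoring peak within 100 kb at 320 sites (48.6%, 44.7 to 52.4%), against 30.8% of all peaks. The standardised share was 46.1%, and the interval of that difference, -1.46 to 6.36 points, includes 0.

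The most crowded broad peak, on chromosome 1 from 954581 to 956042, had 22 other peaks within 100 kb. Chromosome 11 held 3 of the 5 most crowded, from 64051958 to 64053425 (19 peaks), from 64036746 to 64038049 (18) and from 65307146 to 65308610 (17), and chromosome 19 held the remaining one from 56110658 to 56112060 (19). Wide broad peaks with no other peak within 100 kb were found, besides those on chromosomes 6 and 2 named above, on chromosome 16 from 47176774 to 47178570, chromosome 6 from 155053732 to 155055466 and chromosome 7 from 21466526 to 21468228. These were 1797, 1735 and 1703 bp wide.

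Broad peaks were not found nearer to each other than narrower peaks were to them. Another broad peak lay within 100 kb of 71 broad peaks (10.8%, 8.51 to 13.4%), against 9.60% of all peaks and 10.5% of the standardised narrower peaks. The interval of the difference was -2.13 to 2.74 percentage points. The 659 peaks were spread over 524 of the 2546 windows of 1 Mb that held any peak, and 425 of these windows held 1 broad peak. Only 3 pairs lay within 10 kb of each other, and 0 within 1 kb. The closest pair, on chromosome 16 from 30661768 to 30663125 and from 30668725 to 30670213, was 5599 bp apart, with scores of 76.2 and 46.2. The others were 7894 bp apart on chromosome 17 and 9452 bp apart on chromosome 5.

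At least 3 broad peaks fell in each of 24 windows of 1 Mb, with 84 peaks in all. The fullest window, on chromosome 16 from 30000001 to 31000000, held 7 among 49 peaks, with scores from 46.2 to 169. A window on chromosome 1 from 1000001 to 2000000 held 5 among 47 peaks, and another on chromosome 16 from 67000001 to 68000000 held 5 among 52. A window on chromosome 6 from 13000001 to 14000000 held 4 among only 19 peaks. The window on chromosome 3 from 160000001 to 161000000 had 3 broad peaks among 7, and included the highest-scoring broad peak. The 4 broad peaks of a window on chromosome 8 from 145000001 to 146000000 had a median width of 1768 bp, above the upper quartile of all broad peaks.

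Chromosome 21 had more broad peaks than its scores gave, and chromosome 19 had fewer. For each chromosome the number found was set beside the number that the share of broad peaks in each score bin, over all 22 chromosomes, would give. On chromosome 21 there were 18 broad peaks among 349 (5.16%, 3.09 to 8.03%), where the score bins gave 7.26, a ratio of 2.48 (95% Poisson interval 1.47 to 3.92). On chromosome 19 there were 28 among 1531 (1.83%, 1.22 to 2.63%), where the score bins gave 46.6, a ratio of 0.601 (0.400 to 0.869). The interval included 1 on the other 20 chromosomes, where ratios ran from 0.724 on chromosome 12 to 1.354 on chromosome 4. The intervals are not adjusted for 22 chromosomes. With broad peaks defined from 1500 bp, the ratio for chromosome 19 was 0.803 (0.323 to 1.65), and its interval included 1.

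**Figure D5:**
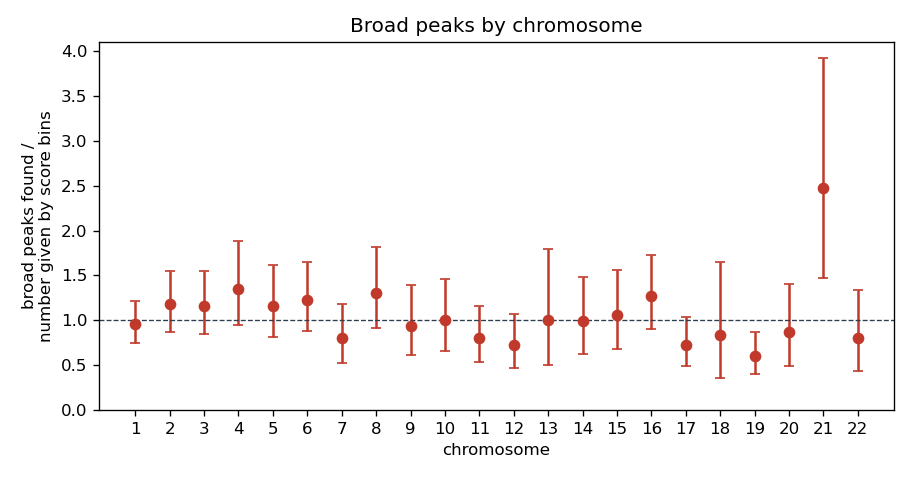
The y axis is the number of broad peaks found on a chromosome divided by the number that its scores give, with 95% Poisson intervals of the number found, and the dashed line marks 1. Chromosome 21 (2.48) lies above 1 and chromosome 19 (0.601) below, with intervals that leave out 1.

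The 18 broad peaks of chromosome 21 were not 1 cluster. Apart from the peak at 9825446, they ran from 27106786 to 47744931. Their widths were between 1204 and 2167 bp with a median of 1378 bp, their scores were between 25.8 and 191, and the nearest other peak was between 245 and 67974 bp away. The 2 widest after the first were 1897 bp from 28205864 to 28207760 (score 31.3) and 1632 bp from 47743300 to 47744931 (score 191). Chromosome 21 was singled out after its value was seen.

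Broad peaks were somewhat more frequent near the first or last peak of a chromosome. The first peak can lie far from the chromosome end. On chromosome 21 the broad peak starting at 9825446 was counted. Within 2 Mb of the first or last peak of a chromosome lay 72 broad peaks (10.9%, 8.65 to 13.6%), against 7.05% of all peaks and 7.94% of the standardised narrower peaks. The difference was 2.99 percentage points (95% interval 0.554 to 5.42). These 72 were on 20 chromosomes, with 9 on chromosome 8 and 7 each on chromosomes 1 and 16. Without chromosome 8 the difference was 2.39 points, and its interval, -0.0252 to 4.81, then included 0. From 1500 bp in width the difference was larger, at 7.27 points (0.910 to 13.6).

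Near long empty stretches, no excess was measured. Within 100 kb of a peak-free stretch of over 1 Mb lay 12 broad peaks (1.82%, 0.944 to 3.16%), against 3.63% of all peaks and 2.68% standardised. The interval of the difference, -1.92 to 0.202 points, includes 0. With broad peaks defined from 1000 bp the difference was -1.53 points (-2.15 to -0.921), and its interval left out 0. The widest broad peak of all, on chromosome 6, was among these 12.

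Many weaker peaks in the list share an identical score value, and no such value was found among the broad peaks. There were 27 values held by at least 25 peaks each, from 4.37 to 27.2. In this range, 14.4% of the peaks of chromosomes 1 to 22 held one, against 0 of 31 broad peaks, for which 3 counts, the limit that a count of 0 allows, would be 9.68% (exact upper bound 11.2%). Narrower peaks weighted to the scores of these 31 held one in 11.8% of cases, so the small number of broad peaks in this range limits the comparison. Without that weighting, values held by at least 10 peaks gave a difference of -19.9 points (-23.9 to -15.9). For values held by at least 50 peaks the interval, -43.3 to 13.7 points, included 0. With a broad count of 0, the exact upper bound of the broad share stood in for its SE on both sides. These intervals therefore reach further down than a share of 0 allows, and their lower bounds have no meaning. The score was part of the rule, so this is a description only.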

How the data were processed

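The submitters' processing notes name build hg19 and the tools MACS2 2.0.9, Bowtie and CASAVA 1.6.0, without role or setting. How the input was used is not stated in these sources. For every peak of 1 library the file holds chromosome, start, end, name and the authors' score, as deposited. Starts were taken as 0-based. The members, the measures and the alternatives were chosen with earlier results of these data known.

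Neighbours, distances and shares were obtained with scipy 1.17.1, numpy 2.4.6 and pandas 2.3.3 under Python 3.11.15, and plots with matplotlib 3.10.9. All called peaks of a chromosome counted as neighbours. Narrower peaks (below 1200 bp, score below 200) were weighted in score bins of 10 units. Shares have exact Clopper-Pearson 95% intervals, differences a normal interval from the stratified binomial SE, and medians an order-statistic interval. With 1 library no test was possible. The code for the standardised difference was checked on simulated data.

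Named peaks were the 10 widest, the 5 highest- and 5 lowest-scoring, the 5 with most and with fewest peaks within 100 kb, the 5 with the nearest neighbour, 3 on each side of each limit, and 1 Mb windows with at least 3 broad peaks. Not all of the fullest windows are printed. Annotation and sequence were not analysed, because the gene tables at hand are of another build.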

Additional observations from a re-analysis of the deposited data

Results flagged for a closer look

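Peaks of the same width and score range were also found outside chromosomes 1 to 22, in data that the comparisons did not use. There were 14, and no input peaks were at hand as a control. On X, 12 of 575 peaks with a score below 200 were at least 1200 bp wide (2.09%, exact 95% interval 1.08 to 3.62%). They were 1203 to 1381 bp wide and scored from 10.99 to 174. On the mitochondrial chromosome 2 of 9 peaks were that wide (22.2%, 2.81 to 60.01%), at 2299 and 1813 bp. On Y it was 0 of 35, where 3 counts, the limit that a count of 0 allows, would be 8.57%.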

How the results depend on the processing

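Of 53 alternatives, 46 stayed within the 95% interval of the reported value, 7 moved beyond it and none turned a difference whose interval left out 0. With broad peaks defined from 1500 bp, the difference in neighbours within 1 kb was -11.7 points and the ratio of nearest distances 1.58. The difference near the first or last peak of a chromosome was then 7.27 points. Against narrower peaks below 600 bp, the first was -10.5 points and the ratio 1.56. With neighbours counted within 5 kb the difference was -10.8 points between edges and -11.2 between centres. The cause of these shifts was not tested. Among the peaks of the top 50% by score, the difference within 1 kb was -5.77 points (1.72% against 7.49%). There the neighbours were also limited to these peaks, so both shares were lower than in the full list and the differences are not directly comparable. With the number of peaks per 1 Mb added to the score bins, the difference within 1 kb was -7.43 points. Alternatives on chromosomes 8, 19 and 21, on centres within 5 kb and on score bins for repeated values were chosen after seeing the data. Leaving out a replicate was not possible. No paired analysis was possible because the comparisons are within 1 library. Annotation by genome was not run. What depth limits is unknown.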
